A study of Mus musculus with 14 samples.

Results

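The genes described here are 55 mouse genes of the DNA damage response and DNA repair, of 24064 genes in the count table. The rule that picks them goes by gene name and function and uses no measured value, though earlier results of these data were known when the genes were chosen. They were read in 9 classes: 5 damage kinases and checkpoint genes, 4 genes of the p53 family and its regulators, 4 genes of the chromatin response at breaks, 14 genes of homologous recombination and end resection, 5 genes of end joining, 8 genes of base excision and single-strand break repair, 6 genes of nucleotide excision repair, 4 genes of mismatch repair and 5 genes of crosslink repair.

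RNA-seq was made from single oocytes of superovulated mice, to ask how loss of the maternal Kdm1a gene changes their transcripts. Kdm1a encodes LSD1 (KDM1A), an enzyme that removes methyl groups from lysine 4 of histone H3. The controls were 4 wt/wt oocytes of strain C57BL/6J, named wt1, wt3, wt4 and wt5, and 1 f/f oocyte, C3, of strain mixed B6;129, labelled flox/flox, in which Kdm1a carries loxP sites and for which the labels give no deletion. The 5 mutant oocytes, labelled mko/mko and named D1, D2, D3, D4 and D7, were of strain mixed B6;129 and came from Kdm1a f/f females with a Zp3-cre transgene, whose promoter is active in growing oocytes and not in the cells around them, so that the first exon of Kdm1a is lost during oocyte growth. The strain label sets the wt/wt oocytes apart from the other 6, and so does the make-up of their libraries, given below. A difference between wt/wt and mutant oocytes therefore cannot be told apart from one of strain or of library make-up. Only C3 shares both strain and floxed allele with the mutants. The study's methods give an age in weeks for superovulated females that gave embryos, but the number and age of the females that gave these oocytes are not given in the sources used here, so the p-values measure the spread between these oocytes.

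The 14 libraries were summed into 10 oocytes by the oocyte name in their titles. The descriptions number the 2 libraries of C3, D3, D4 and D7 as separate oocytes. So n = 5 for control and for mutant oocytes, with a single f/f oocyte, rests on reading a shared name as 1 oocyte. The study's methods also list 5 control oocytes, f/f or wt/wt, and 5 mutant oocytes. With every library as its own sample 12 of the 55 genes were called (background 31.4%), among them all 10 described below. The summed oocytes had 1375187 to 1892015 counts in wt/wt oocytes, 6928548 in C3 and 2016701 to 6926076 in mutant oocytes. Kdm1a had 70, 43, 85 and 27 counts in the wt/wt oocytes, 669 in C3 and 0, 2, 4, 3 and 10 in the mutant oocytes, so each library set followed its label. Levels are given as CPM, each count scaled to the TMM-adjusted total of its oocyte, so they are relative to the other transcripts of an oocyte and not amounts per oocyte. Calls needed a log2 fold change, mutant minus control, of at least 1 in size together with an adjusted p below 0.05 (edgeR's quasi-likelihood test, adjusted by Benjamini-Hochberg over 9198 genes). All 12 oocyte markers were counted in control and in mutant oocytes. Their summed level was 20643 to 35535 CPM in wt/wt oocytes and 54535 to 123524 CPM in mutant oocytes, with C3 inside the mutant range at 62052 CPM. Of 18 cumulus and granulosa cell markers, 9 were at 0 in every oocyte, among them the defining genes Amh, Foxl2, Fshr and Lhcgr, and the summed level was 21.0 to 81.7 CPM in control and 94.8 to 159 CPM in mutant oocytes. Cyp19a1 alone was at 8.50 to 62.7 CPM in control and 79.0 to 147 CPM in mutant oocytes, and without it the sum of the other 17 was 11.7 to 28.7 CPM in control and 10.8 to 15.8 CPM in mutant oocytes. The part of either shift in the results below was not tested.

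A cell that meets a DNA break or a stalled replication fork first activates the kinases ATM and ATR, which mark chromatin, halt the cell cycle through CHEK1 and CHEK2 and act on p53. The lesion is then mended by the pathway that fits it: recombination or end joining for a break in both strands, excision for damaged bases, mismatch repair for copying errors, and the Fanconi pathway for strands linked to each other. An ovulated oocyte no longer transcribes, and its stored transcripts serve the embryo until the embryo's own genome is read, including repair of the sperm's DNA after fertilization.

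Of the 55 genes, 49 passed the filter on low counts and 10 were called, 5 higher and 5 lower in mutant oocytes. With 1 oocyte left out, 4 were called without wt3 or D3 (8.33% and 8.16% of those tested, background 19.0% and 23.7%). There were 5 without wt1 or wt4 (10.2% in each, background 19.3% and 18.7%). There were 6 without D1 or D4 (12.2% and 13.3%, background 17.6% and 22.1%) and 14 without C3 (28.6%, background 31.5%). None was called higher without wt1 or wt3, where 975 and 958 of all genes tested were. With all 10 oocytes, 25.9% of all genes tested were called, 14.7% higher and 11.2% lower. The share among the repair genes, 20.4% of those tested, was below that background. Those higher were Atr, Trp63, Palb2, Rad50 and Nbn, and those lower were Trp53bp1, Rnf168, Blm, Lig4 and Fancm. The median log2 fold change of the 49 was 0.29, against 0.17 over all genes tested, and 30 of the 49 lay above 0. The order of these medians turned where each library entered on its own, at 0.0749 against 0.13. The single values ran from -3.55 for Lig4 to 2.29 for Xrcc5, which was not called. An unadjusted p under 0.05 was found for 18 of the 49, where the background was 39.4%. With library totals in place of TMM scaling, which moved the median of all genes from 0.17 to -0.22 and that of the repair genes from 0.29 to -0.11, 10 of the repair genes were again called, but 1 higher (Palb2, background 10.5%) and 9 lower (background 18.1%), where 28.6% of all genes tested were called. The 9 were Trp53bp1, Rnf168, Blm, Lig4 and Fancm with Chek1, Mdm2, Rbbp8 and Wrn, so that Atr, Trp63, Rad50 and Nbn were not called with that scaling. DESeq2 and limma voom each called 11 of the repair genes, where the background was 30.5% and 34.5%, and edgeR with 1 library per oocyte called 12, where it was 26.7%.

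**Figure D1:**
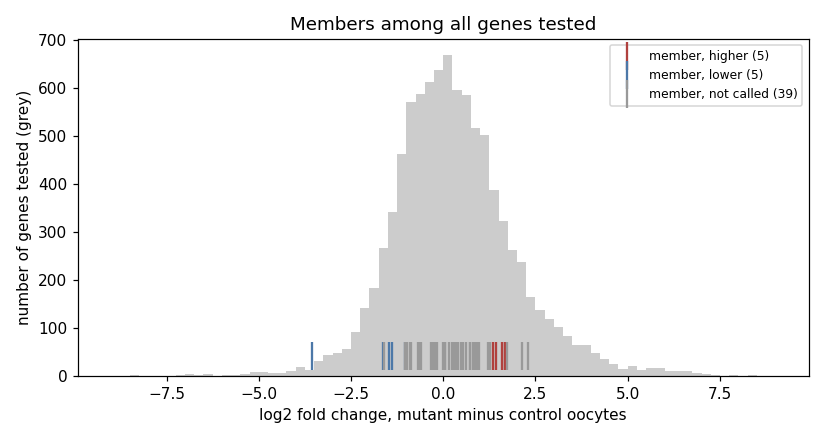
Grey bars count all 9198 genes tested by log2 fold change, mutant minus control oocytes. Ticks mark the 49 repair genes tested, coloured by call. The 10 called genes lie on both sides of 0, and Lig4 at -3.55 is the lowest of the 49.

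Control and mutant oocytes did not overlap in CPM for 8 of the 49 genes, 16.3%, where the background was 16.2%. The mutant oocytes were higher for 3 of them, Atr, Bard1 and Rad51c (background 8.10%), and lower for 5, Mdm2, Trp53bp1, Rnf168, Wrn and Lig4 (background 8.09%). Of these 8, Atr, Trp53bp1, Rnf168 and Lig4 were also called. The 6 genes that did not pass the filter were Atrip, Prkdc, Ercc1, Ercc2, Mlh3 and Pms2. Atrip, the partner of ATR, had no count in any oocyte, which allows up to 0.455 to 1.82 CPM in the mutant oocytes and 0.664 to 1.66 CPM in the controls. Its gene overlaps Trex1 on the same strand, and the part of this overlap in its count was not tested. Mean CPM over the 10 oocytes was under 1 for those 6 genes, 1 to 10 for 15, 10 to 100 for 25 and over 100 for 9, and these bands show the depth behind each gene, not levels per length.

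**Figure D2:**
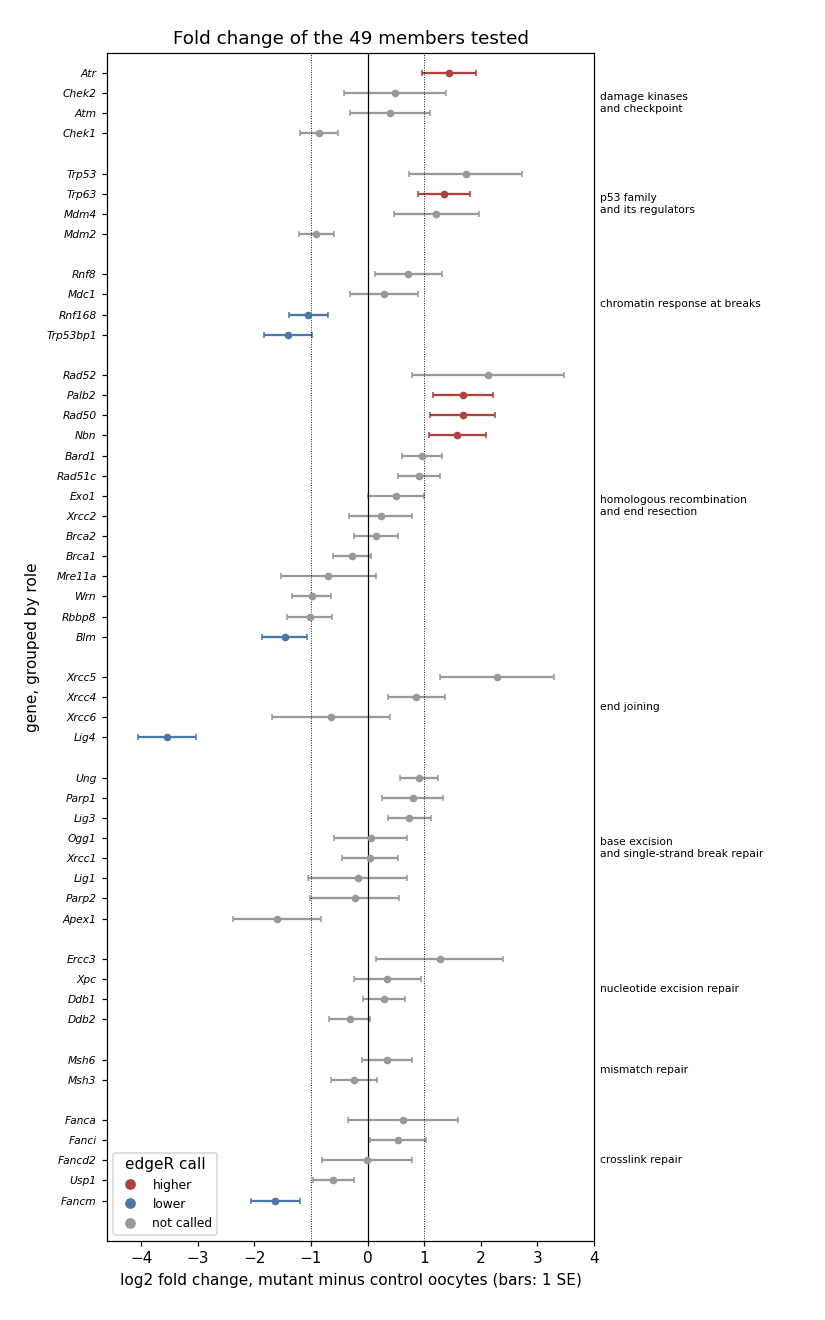
Log2 fold change, mutant minus control oocytes, of the 49 genes tested, in their classes, with bars of 1 standard error and dotted lines at the size threshold of 1. The bars are widest for genes with few counts, such as Rad52 (39 counts in all) and Xrcc5 (67 counts in all).

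Promoter sequences are shown for called genes, so that those that moved in the same direction can be read beside each other. RefSeq promoters of GRCm38.p6 were at hand for 42 of the 55 genes and 7 of the 10 called, without Trp63, Rad50 and Nbn. Each sequence is read 5' to 3' along the gene's strand and ends at the RefSeq start or at the edge of the annotated gene, and for Blm most of the window lay inside that gene and is not shown. The windows of genes that were lower in mutant oocytes are chr8:9977687-9977830 (minus strand) for Lig4, chr2:121271408-121271557 (minus strand) for Trp53bp1, chr12:65075453-65075602 (plus strand) for Fancm and chr16:32277311-32277458 (plus strand) for Rnf168, and those of genes that were higher are chr9:95857447-95857596 (plus strand) for Atr and chr7:122132986-122133096 (minus strand) for Palb2. Capitals mark the GC box GGGCGG, the CCAAT box CCAAT and the ETS-type motif CCGGAAG on either strand.
Lig4: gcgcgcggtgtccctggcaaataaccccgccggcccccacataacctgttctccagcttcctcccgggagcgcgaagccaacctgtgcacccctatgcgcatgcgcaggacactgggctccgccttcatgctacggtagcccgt
Trp53bp1: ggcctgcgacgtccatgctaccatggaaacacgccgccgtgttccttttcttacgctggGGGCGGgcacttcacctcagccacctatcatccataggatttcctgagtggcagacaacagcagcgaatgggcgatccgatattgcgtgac
Fancm: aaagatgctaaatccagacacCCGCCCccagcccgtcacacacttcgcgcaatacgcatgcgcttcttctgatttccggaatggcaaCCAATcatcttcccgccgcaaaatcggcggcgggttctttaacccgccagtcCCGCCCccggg
Rnf168: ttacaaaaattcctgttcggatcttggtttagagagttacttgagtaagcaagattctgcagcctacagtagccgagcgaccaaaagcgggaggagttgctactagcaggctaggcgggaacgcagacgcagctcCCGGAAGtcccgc
Atr: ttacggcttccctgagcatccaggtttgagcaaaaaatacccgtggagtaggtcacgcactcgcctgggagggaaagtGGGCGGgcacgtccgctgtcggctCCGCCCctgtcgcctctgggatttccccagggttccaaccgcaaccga
Palb2: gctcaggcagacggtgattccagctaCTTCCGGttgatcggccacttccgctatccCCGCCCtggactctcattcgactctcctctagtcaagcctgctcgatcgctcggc

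Over the 150 bases before the start, the GC box was in 28 of 48 promoters of the repair genes (58.3%) and in 38% of 21263 promoters of protein-coding genes. By gene, 27 of the 42 repair genes with an entry (64.3%) and 41.4% of 17492 protein-coding genes had it in at least 1 promoter. So did all 7 called genes with an entry, Lig4 at a start inside its annotated gene that is not shown, and Rnf168 across the edge of the sequence shown, and they include both directions of change. CCAAT was in 33.3% against 26.4%, CCGGAAG in 16.7% against 7.3%, the E2F-type motifs TTTCCCGC in 4.17% against 0.795% and TTTGGCGC in 0% against 0.329%, the CRE-type motif TGACGTCA in 4.17% against 1.71% and the E-box CACGTG in 6.25% against 4.72%. TTTCCCGC and GGGCGG can share bases where CC follows the first. These are matches of letters, with no test.

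Among the damage kinases and checkpoint genes, 1 of 4 tested was called, and it was higher. Atr (chr9:95857597-95951781, plus strand), the kinase of stalled forks and single-stranded DNA, stood at 3.31, 4.74, 9.38 and 10.3 CPM in the wt/wt oocytes, 3.77 in C3 and 16.4, 20.1, 13.5, 15.2 and 20.4 in the mutant oocytes. Every mutant oocyte lay above every control. On the log2 scale the difference was 1.44 (standard error 0.47, adjusted p = 0.0343 by edgeR's quasi-likelihood test), and the mean rose from 6.30 ± 3.29 (SD, n = 5) to 17.1 ± 3.03 CPM (SD, n = 5). The call of Atr was lost when wt1, wt3, C3, D1, D2 or D7 was left out, at edgeR adjusted p of 0.0510 to 0.0793 and log2 fold changes of 1.28 to 1.45. It was also lost with no filter on low counts (edgeR adjusted p = 0.0668).

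Chek1 (chr9:36708482-36727065, minus strand), the kinase that ATR activates, was not called. It stood at 729, 609.6, 657 and 309 CPM in the wt/wt oocytes, 637 in C3 and 201, 323, 372, 311 and 412 in the mutant oocytes. The wt/wt oocyte wt5, at 309 CPM, lay inside the range of the mutants, and the log2 fold change was -0.86 (standard error 0.34, edgeR adjusted p = 0.0669). With library totals Chek1 was called, at -1.28. Atm, the kinase of double-strand breaks, ran from 1.34 to 33.4 CPM in control and 7.11 to 23.9 CPM in mutant oocytes, and Chek2, its target, had at most 13 counts in any oocyte.

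In the p53 family 1 of 4 genes was called. Trp63 (chr16:25683763-25892102, plus strand) encodes p63, the family member known for removing damaged oocytes from the ovary. It stood at 13.3, 7.32, 10.2 and 9.40 CPM in the wt/wt oocytes, 27.0 in C3 and 17.5, 39.5, 37.7, 54.0 and 22.9 in the mutant oocytes. All mutant oocytes were above all wt/wt oocytes, and C3 lay within the mutants. Its log2 fold change was 1.34 (standard error 0.46, edgeR adjusted p = 0.0404), and it was 1.78 against wt/wt oocytes alone and 0.37 against C3 alone. The call of Trp63 was lost when wt1, wt3, wt4, wt5, D2, D3 or D4 was left out, at edgeR adjusted p of 0.0641 to 0.0927.

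Trp53 (chr11:69580359-69591873, plus strand), which encodes p53, was near 0 in the wt/wt oocytes and present in the other 6. This gene was chosen for description after its values were seen. It had 2, 1, 0 and 1 counts in the wt/wt oocytes, 174 in C3, 57 and 117 of them in its 2 libraries, and 51, 52, 128, 162 and 26 in the mutant oocytes. In CPM that was 1.10 at most in wt/wt oocytes, 38.5 in C3 and 12.9 to 45.5 in mutant oocytes. Against all 5 controls Trp53 was not called by edgeR (log2 fold change 1.73, standard error 1.00, edgeR adjusted p = 0.207) or DESeq2 (adjusted p = 0.297), and was called higher by limma voom with sample quality weights (adjusted p = 0.000107). Against wt/wt oocytes alone it was called higher (edgeR adjusted p = 6.51e-05), and against C3 alone the log2 fold change was -0.41. A processed copy, Trp53-ps, lies at chr17:54419680-54420841, and reads that match both would not have been counted.

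Mdm2 (chr10:117688875-117710758, minus strand), the ubiquitin ligase that removes p53, had tight controls and lower mutants. It stood at 549, 644, 599 and 598 CPM in the wt/wt oocytes, 579.7 in C3 and 426, 386, 298, 201 and 271 in the mutant oocytes. The groups did not overlap and C3 sat with the wt/wt oocytes. For Mdm2 the log2 fold change was -0.91 (standard error 0.31, edgeR adjusted p = 0.0402), past the p threshold and short of the size threshold, which it passed without D1 (-1.02). Mdm4, a related inhibitor of p53, was uneven among the mutants, with 170.0, 48.0, 71.8, 899.8 and 44.8 CPM against 35.4 to 232 CPM in the controls. The high value was D4, where both libraries had it, with 3211 and 2719 counts, and a copy of the gene, Mdm4-ps, lies on the X chromosome.

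The chromatin response at breaks had 2 of 4 genes called by edgeR and by DESeq2, both lower, and 0 by limma voom. Under voom both were past the p threshold and just short of the size threshold, at -0.97 for Trp53bp1 (adjusted p = 0.0168) and -0.97 for Rnf168 (adjusted p = 0.0300). Trp53bp1 (chr2:121193281-121271407, minus strand) encodes 53BP1, which binds modified nucleosomes beside a break and holds back resection of its ends. It stood at 1514, 1855, 1732 and 1826 CPM in the wt/wt oocytes, 5170.0 in C3 and 762, 1281, 839, 451 and 1247 in the mutant oocytes. Every mutant oocyte lay below every control, and C3 stood far above the wt/wt oocytes. It fell by 1.40 on the log2 scale (standard error 0.43, edgeR adjusted p = 0.0250). Without C3 the log2 fold change of Trp53bp1 was -0.90 (edgeR adjusted p = 0.0464), short of the size threshold, and the call was also lost without D1, D3 or D4, at edgeR adjusted p of 0.0542 to 0.0635.

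The exons of Trp53bp1 share 2130 bases with those of Tubgcp4 on the other strand, at chr2:121195410-121198607, and strand use in counting is not stated. Tubgcp4 CPM was 0.652 to 0.954 times Trp53bp1 CPM in the 10 oocytes, with a log2 fold change of -1.25 (edgeR adjusted p = 0.0507), and within the shared stretch, part of the 14.2 kb of Trp53bp1 exons, the reads of these genes cannot be told apart. How much of either count comes from there was not tested. Atr, Palb2, Fancm, Brca2, Lig3, Ddb1 and Msh6 also have annotated genes on the other strand within or beside them, whose reads cannot be told apart from theirs where they overlap.

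Rnf168 (chr16:32277459-32301434, plus strand), the ubiquitin ligase whose mark on nucleosomes draws 53BP1, stood at 43.6, 62.0, 43.2 and 51.0 CPM in the wt/wt oocytes, 70.2 in C3 and 27.3, 35.9, 17.8, 21.8 and 28.4 in the mutant oocytes. Again no mutant reached a control. Rnf168 fell by 1.05 on the log2 scale (standard error 0.34, edgeR adjusted p = 0.0338). The call of Rnf168 was kept only when wt1 or D2 was left out, and over the 10 ways of leaving out 1 oocyte its log2 fold change was between -1.18 and -0.90, with edgeR adjusted p of 0.0514 to 0.0831 where the call was lost. The call of Rnf168 was also lost with no filter on low counts (edgeR adjusted p = 0.0779) and with filterByExpr, at -0.97. Rnf8, the ligase that acts before RNF168, was not called, with 148 and 83.9 CPM in D1 and D2 and 14.3 to 21.9 CPM in the other 3 mutants, against 18.8 to 62.7 CPM in the controls. Mdc1, the adaptor that binds marked histone H2AX, ran from 2.49 to 20.8 CPM over all oocytes.

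**Figure D3:**
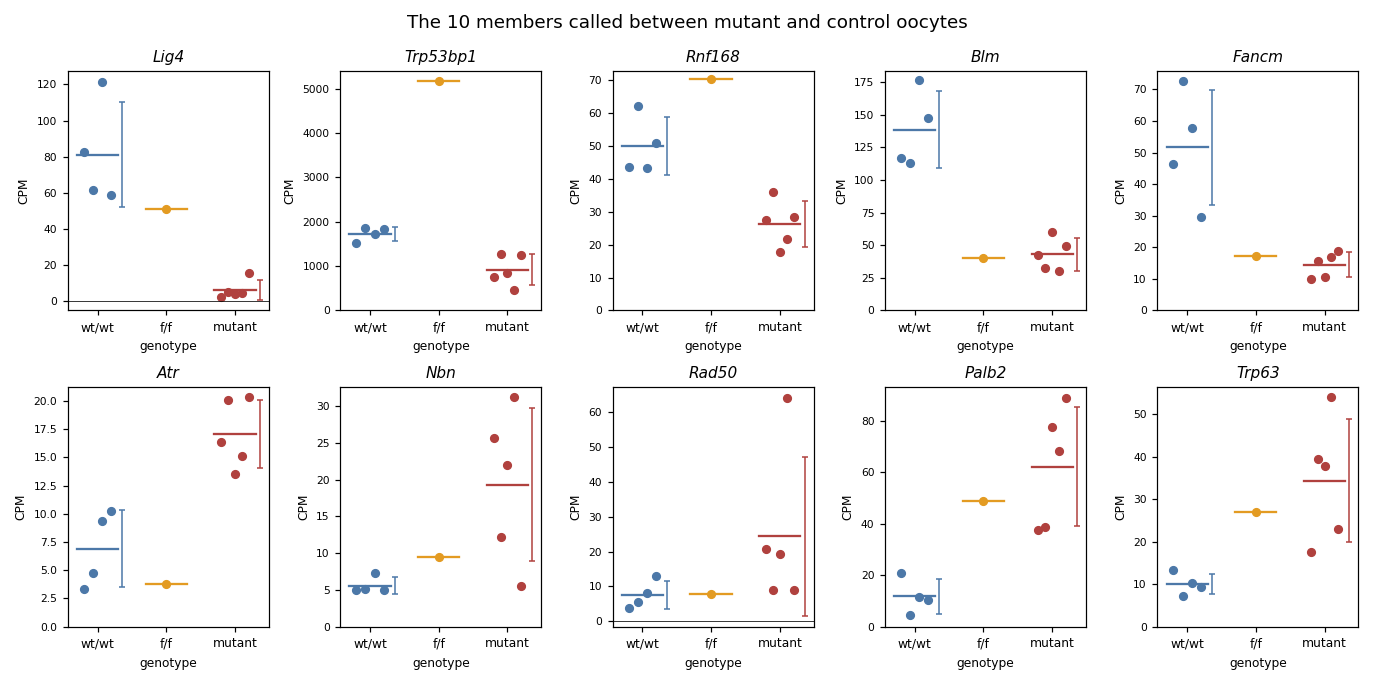
CPM of the 10 called genes in each oocyte by genotype, with lines at group means and bars of 1 SD, on axes of differing range. The lower genes are in the top row and the higher genes in the bottom row, and the f/f oocyte C3 lies near the mutants for Blm, Fancm, Palb2 and Trp63.

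Homologous recombination and end resection, the largest class, had 4 of 14 genes called by edgeR, 3 higher and 1 lower. The balance of direction depended on the tool, with 3 higher and 2 lower by DESeq2 and 2 higher and 3 lower both by limma voom and with 1 library per oocyte in edgeR. Rbbp8 was called lower in all 3 of these and Wrn in the latter pair, where Rad50 was not called (adjusted p = 0.0678 by voom and 0.0710 by edgeR). The higher genes were Palb2 and the MRN subunits Rad50 and Nbn, and the lower gene was the helicase gene Blm. Mre11a, the third MRN subunit, had at most 13 counts in an oocyte and a log2 fold change of -0.69 (standard error 0.83, edgeR adjusted p = 0.569).

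Rad50 (chr11:53649519-53707319, minus strand), which encodes the ATPase of MRN, stood at 3.87, 5.60, 8.16 and 12.98 CPM in the wt/wt oocytes, 7.75 in C3 and 20.8, 9.12, 19.2, 64.0 and 8.95 in the mutant oocytes. D2 and D7 lay inside the range of the controls, and D4 stood apart, with 217 and 205 counts in its 2 libraries. It rose by 1.68 on the log2 scale (standard error 0.57, edgeR adjusted p = 0.0399). Without D4 that of Rad50 was 0.93 (edgeR adjusted p = 0.197), and the call was also lost without wt1, wt3, wt4, D1 or D3, at edgeR adjusted p of 0.0522 to 0.0906.

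Nbn (chr4:15957925-15992589, plus strand), the subunit that ties MRN to ATM, stood at 4.97, 5.17, 7.34 and 4.92 CPM in the wt/wt oocytes, 9.52 in C3 and 25.7, 12.2, 22.04, 31.3 and 5.47 in the mutant oocytes. D7 lay among the controls and the other 4 mutants above them. Nbn rose by 1.59 on the log2 scale (standard error 0.51, edgeR adjusted p = 0.0309). The call of Nbn was lost without wt1, wt3, wt4, wt5, D1, D3 or D4, at edgeR adjusted p of 0.0512 to 0.0731.

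Palb2 (chr7:122107262-122132985, minus strand), whose protein joins BRCA1 to BRCA2, stood at 21.0, 4.74, 11.4 and 10.3 CPM in the wt/wt oocytes, 48.7 in C3 and 37.7, 38.9, 77.5, 68.4 and 89.0 in the mutant oocytes. The mutants were all above the wt/wt oocytes and C3 lay within the mutants. Palb2 rose by 1.68 on the log2 scale (standard error 0.53, edgeR adjusted p = 0.0286), with 2.39 against wt/wt oocytes alone (edgeR adjusted p = 0.00150) and 0.38 against C3 alone (edgeR adjusted p = 0.791). The call was lost without wt1, wt3, wt4, wt5, D3 or D7, at edgeR adjusted p of 0.0515 to 0.0685.

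Blm (chr7:80454733-80535119, minus strand), a RecQ helicase that dissolves joined recombination intermediates, stood at 117, 113, 176 and 147 CPM in the wt/wt oocytes, 39.9 in C3 and 42.1, 32.8, 60.4, 29.9 and 49.2 in the mutant oocytes. C3 sat inside the mutants, while the lowest wt/wt oocyte had 113 CPM and the highest mutant 60.4 CPM. For Blm the log2 fold change was -1.47 (standard error 0.40, edgeR adjusted p = 0.0147), and it was -1.68 against wt/wt oocytes alone (edgeR adjusted p = 0.00190) but 0.13 against C3 alone (edgeR adjusted p = 0.931). Leaving out any 1 oocyte kept the call.

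Wrn (chr8:33234384-33385527, minus strand), a second RecQ helicase with an exonuclease, stood at 62.9, 73.6, 78.7 and 60.4 CPM in the wt/wt oocytes, 52.3 in C3 and 26.8, 34.0, 35.6, 19.1 and 50.2 in the mutant oocytes. The groups did not overlap, with C3 and D7 the closest pair. Wrn differed by -0.99 on the log2 scale (standard error 0.35, edgeR adjusted p = 0.0457), just short of the size threshold, and it was called without C3, at -1.05, and without D7, at -1.14.

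Bard1 (chr1:71027498-71103146, minus strand), the ring partner of BRCA1, stood at 27.1, 26.3, 14.3 and 16.1 CPM in the wt/wt oocytes, 24.6 in C3 and 37.7, 33.4, 39.8, 41.0 and 59.2 in the mutant oocytes. Rad51c (chr11:87376645-87404954, minus strand), a paralogue of the strand-exchange recombinase, stood at 20.4, 25.0, 25.7 and 26.4 CPM in the wt/wt oocytes, 12.4 in C3 and 37.7, 37.7, 28.1, 57.8 and 43.8 in the mutant oocytes. In both genes every mutant lay above every control, and the difference on the log2 scale was 0.96 for Bard1 (standard error 0.36, edgeR adjusted p = 0.0565) and 0.90 for Rad51c (standard error 0.37, edgeR adjusted p = 0.0770), so neither was called. Without C3 Bard1 was called, at 1.02 (edgeR adjusted p = 0.0465).

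Brca2 (chr5:150522630-150570329, plus strand), which loads the recombinase on resected DNA, stood at 213, 242, 252 and 198 CPM in the wt/wt oocytes, 673 in C3 and 359, 348, 419.8, 209 and 416 in the mutant oocytes. The f/f oocyte was the highest of the 10 and the genotypes overlapped (log2 fold change 0.15, standard error 0.39, edgeR adjusted p = 0.802). Brca1 differed by -0.28 on the log2 scale (standard error 0.33, edgeR adjusted p = 0.565). The other 5 genes of the class, Rad52, Rbbp8, Exo1, Xrcc2 and Mre11a, ran from -1.02 for Rbbp8 (edgeR adjusted p = 0.0632) to 2.12 for Rad52 (edgeR adjusted p = 0.252).

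**Figure D4:**
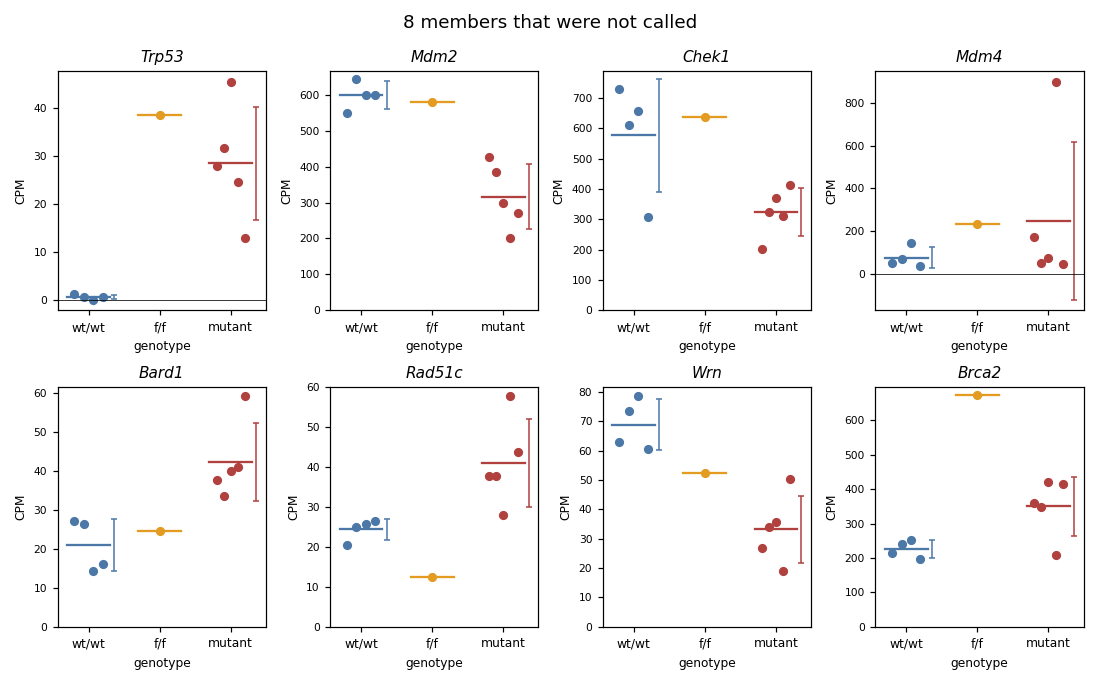
CPM by genotype of 8 genes that were not called, with lines at group means and bars of 1 SD, on axes of differing range. Trp53 is near 0 in the wt/wt oocytes only, Mdm2 and Wrn are lower in every mutant than in every control, and single oocytes stand apart for Mdm4 (D4) and Brca2 (C3).

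In end joining 1 of 4 genes tested was called. Lig4 (chr8:9969049-9977686, minus strand) encodes the ligase that seals broken ends in classical end joining. It stood at 82.8, 61.6, 122 and 59.1 CPM in the wt/wt oocytes, 50.9 in C3 and 2.19, 5.47, 4.27, 4.40 and 15.9 in the mutant oocytes, from 132 to 298 counts in each control and 4 to 32 counts in each mutant. No mutant came near a control, and D7 stood above the other 4 mutants. Lig4 fell by 3.55 on the log2 scale (standard error 0.51, edgeR adjusted p = 0.000548), the largest change of the 49 genes in size. Its log2 fold change was -3.67 against wt/wt oocytes alone (edgeR adjusted p = 0.000131) and -2.96 against C3 alone (edgeR adjusted p = 0.109), and leaving out any 1 oocyte kept the call.

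Xrcc4, the partner of LIG4, overlapped between genotypes, with 4.92 to 37.0 CPM in control and 17.0 to 81.8 CPM in mutant oocytes (log2 fold change 0.86, standard error 0.50, edgeR adjusted p = 0.212). The Ku subunit genes Xrcc5 and Xrcc6 had 67 and 38 counts in all 10 oocytes together, 48 of the 67 in D4, and neither was called. Prkdc, the kinase that Ku recruits, had 11 counts in all and was not tested.

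No gene of base excision and single-strand break repair was called by edgeR, of 8 tested, with 1 of them (Ung) at an unadjusted p under 0.05. DESeq2 also called none and limma voom called 1, Apex1, lower. Lig3 (chr11:82781108-82804274, plus strand), the ligase of single-strand break repair, stood at 36.4, 48.6, 36.3 and 34.9 CPM in the wt/wt oocytes, 94.1 in C3 and 45.4, 91.8, 112, 92.7 and 76.1 in the mutant oocytes. C3 sat with the mutants, and the log2 fold change of Lig3 was 0.74 (standard error 0.38, edgeR adjusted p = 0.165). It was 1.11 against wt/wt oocytes alone (edgeR adjusted p = 0.0247) and -0.15 against C3 alone. Ung, which removes uracil from DNA, ran from 24.8 to 49.5 CPM in control and 48.7 to 83.9 CPM in mutant oocytes (log2 fold change 0.92, standard error 0.34, edgeR adjusted p = 0.0528). The 6 others, Xrcc1, Lig1, Parp1, Parp2, Apex1 and Ogg1, had mean levels of 2.56 to 11.4 CPM and log2 fold changes of -1.60 for Apex1 to 0.80 for Parp1.

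Nucleotide excision repair had no call among the 4 genes tested by edgeR, DESeq2 or voom, with an unadjusted edgeR p under 0.05 for 0 of them. Ddb1 (chr19:10605327-10629819, plus strand), which with DDB2 binds ultraviolet lesions and also serves CUL4 ubiquitin ligases, stood at 643, 486, 347 and 573 CPM in the wt/wt oocytes, 775 in C3 and 912, 1026, 503, 314 and 699 in the mutant oocytes. The groups overlapped widely (log2 fold change 0.29, standard error 0.37, edgeR adjusted p = 0.595). Ddb2 was at 137 to 281 CPM in control and 88.0 to 253 CPM in mutant oocytes, Xpc had 8 to 115 counts in an oocyte, and the helicase gene Ercc3 had 52 counts in all.

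Mismatch repair also had no call by these 3 tools, with an unadjusted edgeR p under 0.05 for 0 of the 2 genes tested. Msh6 (chr17:87975062-87990892, plus strand), a subunit of the sensor of single-base mispairs, stood at 142, 136, 173 and 72.1 CPM in the wt/wt oocytes, 504 in C3 and 175, 301, 303, 264 and 254 in the mutant oocytes. The f/f oocyte was again the highest, and all mutants lay above all wt/wt oocytes. Against all controls Msh6 differed by 0.34 on the log2 scale (standard error 0.44, edgeR adjusted p = 0.607), by 1.01 against wt/wt oocytes alone (edgeR adjusted p = 0.0281) and by -0.94 against C3 alone (edgeR adjusted p = 0.372). Msh3, the subunit for longer loops, overlapped between genotypes (log2 fold change -0.24, standard error 0.40), and Mlh3 and Pms2 had 5 and 12 counts in all.

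Crosslink repair had 1 of 5 genes called. Fancm (chr12:65075603-65132058, plus strand), the translocase that brings the Fanconi core complex to DNA, stood at 46.4, 72.8, 57.9 and 29.5 CPM in the wt/wt oocytes, 17.3 in C3 and 9.84, 15.8, 10.7, 16.8 and 18.9 in the mutant oocytes. The mutants were all below the wt/wt oocytes and C3 lay among them. For Fancm the log2 difference was -1.63 (standard error 0.43, edgeR adjusted p = 0.0130), -1.82 against wt/wt oocytes alone (edgeR adjusted p = 0.00268) and -0.24 against C3 alone (edgeR adjusted p = 0.877), and leaving out any 1 oocyte kept the call. Usp1 (chr4:98923810-98935543, plus strand), which takes ubiquitin off FANCD2, stood at 147, 145, 64.0 and 159.8 CPM in the wt/wt oocytes, 137 in C3 and 76.5, 46.8, 83.2, 139.7 and 82.1 in the mutant oocytes, and was not called (log2 fold change -0.60, standard error 0.37, edgeR adjusted p = 0.234). Fancd2 and Fanca had 47 and 74 counts in all, and Fanci stood at 3.91 to 11.8 CPM over all oocytes.

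The f/f oocyte did not sit with the wt/wt oocytes for every gene. Of the 10 called genes, C3 was nearer to the wt/wt mean for 6, Atr, Trp53bp1, Rnf168, Rad50, Nbn and Lig4, and nearer to the mutant mean for 4, Trp63, Palb2, Blm and Fancm, on a log2 scale of CPM + 1. Over the 55 genes C3 was inside the wt/wt range for 26 (47.3%), above it for 16 (29.1%) and below it for 13 (23.6%), and the shares over all genes tested were 48.2%, 28.4% and 23.4%. Against the 4 wt/wt oocytes alone 14 of the 49 genes were called (background 31.5%), of which 7 were among the 10. The 7 others were Trp53, Bard1, Lig3, Msh6 and Ung, all higher, and Wrn and Rbbp8, both lower. Against C3 alone edgeR called 0 of 48 genes tested, 6 of them at an unadjusted p under 0.05, and the background was 0.0340% (3 of 8811 genes). The sign of the log2 fold change against C3 alone differed from that against all controls for 15 of those 48 genes, Blm among them and none of the 9 other called genes. The share over all genes was not taken, so this count is not shown to be particular to the repair genes. In that fit the spread of the lone control is taken to be that of the mutants. With 1 such oocyte, genotype and the difference between single oocytes cannot be told apart for any gene there.

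**Figure D5:**
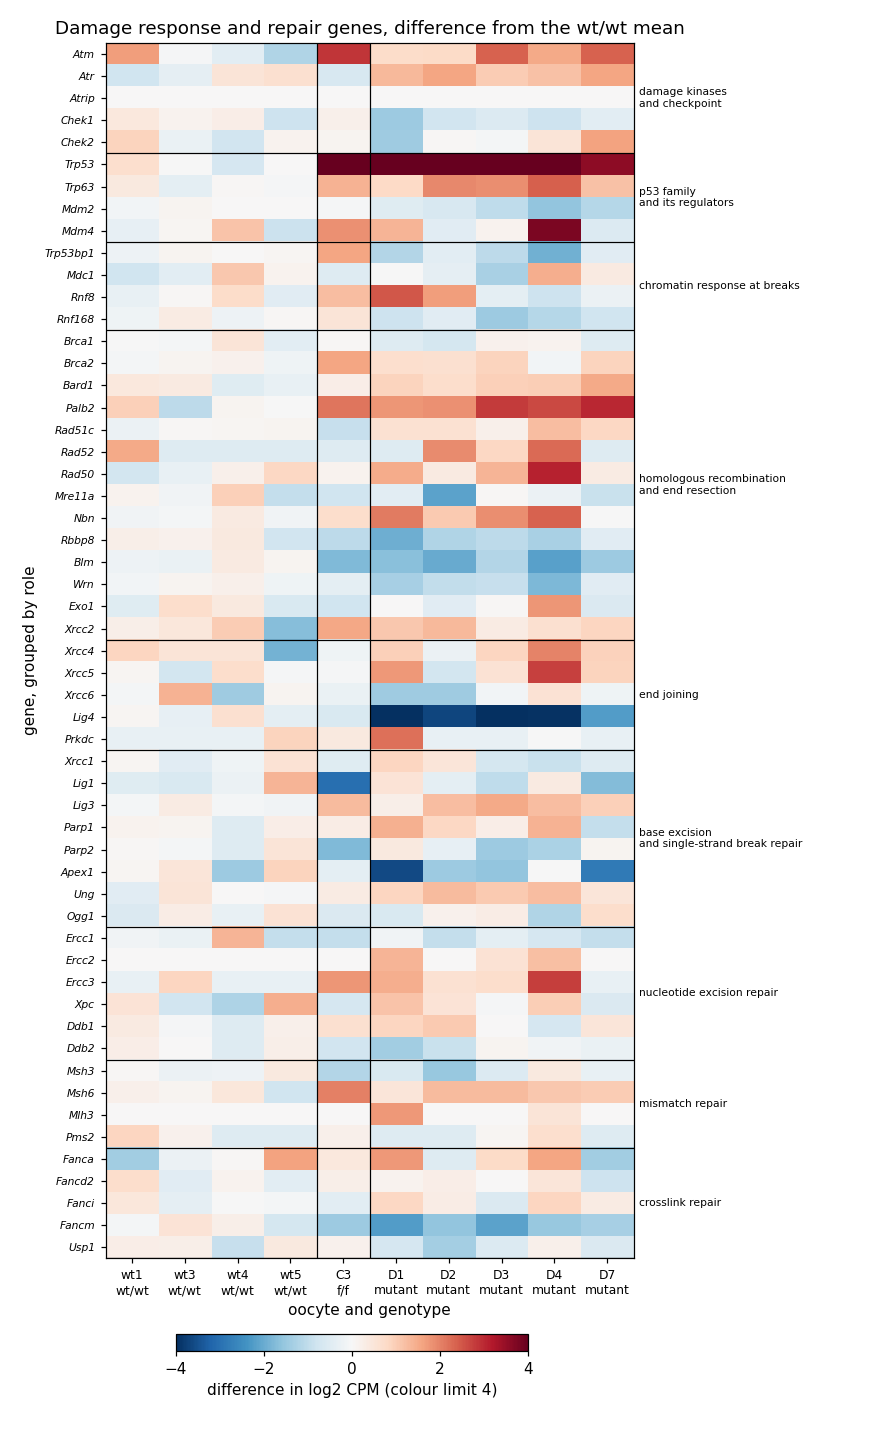
Difference of each oocyte from the mean of the 4 wt/wt oocytes, in log2 CPM with a prior count of 2, for the 55 genes in their classes, with colours ending at -4 and 4. Trp53 is high in C3 and all mutants, Lig4 is low in all mutants, and Blm and Fancm are low in C3 as well as in the mutants.

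The mutant oocytes also differed among themselves. The highest mutant was over 3 times the lowest for 21 of the 49 genes, and the highest wt/wt oocyte for 14, while a level of 0 kept 8 and 6 genes from having a ratio. The median ratio was 3.03 among 5 mutants and 2.32 among 4 wt/wt oocytes, and the difference was not tested, since more oocytes widen a range and C3 is the only control of their strain. D4, the mutant with the most counts, was the highest mutant for 17 of the 49 genes, among them Rad50, Nbn, Trp63, Mdm4, Exo1 and Xrcc4, and D7 for 11, D1 and D3 for 8 each and D2 for 5. The shares over all genes tested were not taken, so none of these counts is shown to be particular to the repair genes.

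To set the list in its pathways, 159 other genes of the same processes in the count table were read by the same fit, and 125 of them were tested. Of these, 19 were called higher and 7 lower, 20.8% against the background of 25.9%, with a median log2 fold change of 0.35. By process, calls higher and lower were 2 and 0 of 11 for the 9-1-1 clamp, ATR activation and fork protection, 0 and 0 of 12 for p53 targets, 1 and 0 of 9 for the chromatin response, 4 and 4 of 32 for homologous recombination, 2 and 0 of 9 for end joining, 3 and 1 of 13 for base excision, 3 and 0 of 14 for nucleotide excision, 1 and 0 of 2 for mismatch repair, 1 and 0 of 10 for crosslink repair and 2 and 2 of 13 for translesion synthesis. Calls in both directions together went from 3 by edgeR to 6 by DESeq2 and 6 by voom for nucleotide excision, from 4 to 7 by DESeq2 for base excision, from 2 to 4 by DESeq2 for end joining, and from 1 to 2 by voom for the chromatin response and for crosslink repair. Among the p53 targets, where edgeR called 0, 4 of the 12 had an unadjusted edgeR p under 0.05, DESeq2 called 1 (Sesn1, lower; background 30.5%) and limma voom called 4 (Sesn1 and Perp lower, Cdkn1a and Gadd45a higher), a share near its background of 34.5%.

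The 6 higher genes with the smallest p had log2 fold changes above 2.29, the highest among the 49. Topbp1, the activator of ATR, stood at 5.52, 1.29, 0.408 and 13.4 CPM in the wt/wt oocytes, 1.33 in C3 and 49.2, 25.5, 21.7, 162 and 7.46 in the mutant oocytes, so that only D7 fell inside the range of the controls (log2 fold change 3.64, standard error 0.88, edgeR adjusted p = 0.00778). Cdc25b, the phosphatase that releases the G2 arrest and is needed for oocyte maturation, was higher in every mutant, at 0.816 to 43.9 CPM in control and 50.2 to 287 CPM in mutant oocytes (log2 fold change 3.76, standard error 0.81, edgeR adjusted p = 0.00406). Shfm1, a small partner of BRCA2, was at 15.5 to 49.2 CPM in control and 144 to 279 CPM in mutant oocytes (log2 fold change 2.66, edgeR adjusted p = 0.000499). Cetn2 and Gtf2h1 of nucleotide excision repair had log2 fold changes of 3.47 and 3.19, and Tdp2, which frees ends from trapped topoisomerase, had 3.45.

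Of the 7 genes called lower, the 6 with the smallest p are given here. Shprh (log2 fold change -1.85) encodes a ubiquitin ligase of lesion bypass, Polk (-1.83) a bypass polymerase and Apex2 (-2.52) a nuclease related to APEX1. Nsmce1 (-2.86) and Smc6 (-1.10) encode subunits of the same SMC complex, and Rad51d (-1.39) a further paralogue of the recombinase. Rad51d was at 17.2 to 23.7 CPM in control and 6.37 to 8.95 CPM in mutant oocytes, with standard error 0.40 and edgeR adjusted p = 0.0190, while Rad51c of the list above was higher in every mutant. Nsmce1 stood at 23.7 to 32.0 CPM in wt/wt oocytes, 8.86 in C3 and 0.759 to 5.97 in mutant oocytes (standard error 0.57, edgeR adjusted p = 0.00272). The call of Rad51d was lost with no filter on low counts (edgeR adjusted p = 0.0603). Without wt4 the call of Polk was lost (edgeR adjusted p = 0.0588), and that of Smc6 was lost without wt1, wt3, wt4, D1 or D2, at edgeR adjusted p of 0.0503 to 0.0633.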

How the data were processed

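Single-oocyte cDNA was read as single ends. The deposited values are raw counts for each RefSeq gene. The authors aligned reads to mm10 with TopHat2 2.0.6, kept unique best hits and counted with HTSeq 0.5.3p9 (versions as in the submitters' processing notes), without normalization. The cDNA method favours the 3' end of transcripts, so a deletion of a first exon can leave counts.

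Libraries sharing an oocyte name (C3, D3, D4 and D7) were summed, since their Spearman correlation, 0.940 to 0.979, was above that with any library of another name, at most 0.908. The libraries of a pair still differed beyond counting error (chi-square per degree of freedom 11.6 to 28.8), with 2 to 8 repair genes at 0 in only 1 of them. Of the 15432 genes with any count, the top 60% by total count (9198) were tested. The comparison of genotypes used edgeR 4.0.16 under R 4.3.3 (TMM, glmQLFit, glmQLFTest, genotype as the only term, Benjamini-Hochberg adjustment over the 9198 genes). CPM used TMM-adjusted totals, log2 CPM a prior count of 2, and an upper limit for 0 counts used 3 counts and covers counting error only.

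The genes, classes and lists were chosen with earlier results of these data known. The text names Kdm1a, each called gene, the gene of highest mean CPM in each class, each gene whose groups did not overlap, and the 6 called other repair genes of smallest p in each direction. Trp53, Mdm4, Rnf8, Ung, Xrcc4 and further uncalled genes given with values were named after their values were seen. Coordinates are GENCODE M21 on GRCm38, matched for 56 of 56 names, and the promoters are RefSeq's.

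Alternatives were RLE scaling, library totals, no filter, filterByExpr, DESeq2 1.42.0, limma 3.58.1 voom with quality weights, every library as a sample without and with a replicate block, 1 library per oocyte, wt/wt or f/f control alone, adjusted p alone, and each oocyte left out. On simulated counts with 9198 genes, 41 of 100 genes changed by 2 on the log2 scale and 77 of 100 changed by 3 were called, with 8 false calls. In the simulation only these genes changed and all controls shared 1 mean, while 25.9% of genes were called in the real data. Its shares therefore do not measure how many changes were found or falsely called here.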

Additional observations from a re-analysis of the deposited data

Results flagged for a closer look

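In groups of 4 or 5 oocytes, an oocyte was listed where its gap to the nearest other, as a share of the group's range, was above Dixon's critical value for that number. Of 63 groups of values, over 21 named genes, 13 met this, in 10 genes. About 1 in 20, or 3.15, would meet it if the groups were independent and their values normal. Here the wt/wt groups lie within the control groups, and many of the genes were named by these same values. The 13 therefore cannot be set against that number. The f/f oocyte C3 was the one that stood apart in 5 of the 13.

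C3 was above the other controls for Kdm1a (share 0.805, 148 CPM, next 38.7), Trp53bp1 (0.906, 5170.0 CPM, next 1855), Brca2 (0.886, 673 CPM, next 252), Lig3 (0.768, 94.1 CPM, next 48.6) and Msh6 (0.767, 504 CPM, next 173). Among wt/wt oocytes, wt4 was above the others for Nbn (0.899, 7.34 CPM, next 5.17) and below them for Usp1 (0.842, and 0.759 among all 5 controls, 64.0 CPM), wt3 was above them for Lig3 (0.888, 48.6 CPM, next 36.4), and wt5 was below the other controls for Chek1 (0.715, 309 CPM, next 609.6). Among mutant oocytes D4 was above the others for Rad50 (0.785, 64.0 CPM, next 20.8), and D7 for Lig4 (0.761, 15.9 CPM, next 5.47) and Kdm1a (0.714, 4.97 CPM, next 1.42). What set these oocytes apart was not tested.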

How the results depend on the processing

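Kdm1a stayed called and lower under all 22 alternatives (log2 fold change -6.55 to -4.05), and Lig4 under all but the f/f oocyte alone as control. Over all genes tested, calls numbered 2385 (1353 higher, 1032 lower), with 1607 to 2885 when 1 oocyte was left out (898 to 1725 higher, 709 to 1160 lower). With library totals they were 965 higher and 1667 lower. Against the f/f oocyte alone there were 3, 0 higher and 3 lower, and none among the repair genes in either list (0 higher, 0 lower in each). Among the 55 genes, 5 were called higher and 5 lower. Leaving out 1 oocyte gave 0 to 9 higher and 3 to 6 lower. Calls numbered 4 without wt3 or D3 (background 19.0% and 23.7%) and 14 without C3 (background 31.5%). With library totals 1 was higher and 9 lower, and their median log2 fold change was -0.11 in place of 0.29. Against wt/wt oocytes alone 9 were higher. The median was 0.0749 where each library entered on its own. For the other repair genes, 19 higher and 7 lower, library totals gave 10 and 17, every library as its own sample 30 and 11, voom 14 lower, and leaving out 1 oocyte 11 to 23 and 4 to 10. Against the f/f oocyte alone the direction reversed for 15 of 48 repair genes, and the share over all genes was not taken. Those given by the naming rule were Blm (0.13), Brca2 (-0.91), Lig3 (-0.15), Ddb1 (-0.14) and Msh6 (-0.94). The direction also reversed for Brca2 with library totals (-0.11) or every library as its own sample (-0.14), and for Ddb1 (-0.14 and -0.0441). The cause was not tested.

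The deposited oocyte numbers, shared between genotypes, served as a replicate block over the libraries. Calls over all genes then fell to 966 (592 higher, 374 lower), those among the 55 genes to 2 higher and 1 lower (Palb2, Trp53 and Lig4), and those among the other repair genes to 7 higher. Libraries with the same number did not deviate together (correlations of -0.13 to 0.09 in 4 pairs), so the numbers were not taken as pairs. The other alternatives changed neither count of calls among the 55 genes by more than 1.5 times. At 1375187 to 1892015 counts per wt/wt oocyte, 3 counts stand for 1.22 to 1.66 CPM, so genes such as Xrcc5, Mre11a and Ercc3 allow no fine comparison.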

Other observations

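Levels of repair genes whose protein partners are known to work as a unit can be set side by side. In the MRN complex Rad50 and Nbn were called higher, and Mre11a was not called. In the pair of ligase IV and its partner, Lig4 was called lower and the log2 fold change of Xrcc4 was 0.86 (not called). In the step from marked chromatin to 53BP1, Rnf168 and Trp53bp1 were called lower, and neither Rnf8 nor Mdc1 was called. Between the recombinase paralogues, Rad51d was called lower, while Rad51c, at a log2 fold change of 0.90, was not called although its mutant oocytes all lay above the controls. Whether the members of each unit differ from each other in their change was not tested.

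Gadd45a, a p53 target named here after its values were seen, was at 0 counts in the 4 wt/wt oocytes, 29 in C3 and 11, 6, 11, 30 and 43 in the mutant oocytes, so it shared with Trp53 a level at or near 0 in the wt/wt oocytes and counts in the other 6. It was not called against all controls (log2 fold change 2.35, edgeR adjusted p = 0.111). Cdkn1a, another target, had 0 to 2 counts in the wt/wt oocytes, 12 in C3 and 2 to 17 in the mutant oocytes. Between wt/wt and mutant oocytes, genotype, strain and library make-up cannot be told apart for these genes. Other targets went the other way: of the 12 tested, 5 had a log2 fold change above 0 and 7 below, with a median of -0.24. Sesn1 was at -2.25. Bax, not tested, had 0, 1, 4 and 2 counts in the wt/wt oocytes and 0 in the other 6.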
